A study of Mus musculus with 8 samples.

Results

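The genes described here are 32 genes of the mTORC1 nutrient-sensing machinery at the lysosome, measured as mRNA in gastrocnemius muscle of mice with and without Bcat2. They were chosen by name from their place in 8 groups: mTORC1 itself, Rheb with the TSC complex, the Rag GTPases, Ragulator, GATOR1, GATOR2, folliculin with its partners, and the S6 kinases with the 4E-BP proteins. All 32 were found, on 1 row each, among the 38741 distinct symbols of the deposited table, and 30 of them passed the filter on low values used for testing, a mean of at least 1 FPKM over the 8 mice.

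Gastrocnemius, in the calf, consists mainly of fast-twitch fibres in mice. The mice labelled Bcat2 KO were 4 males of 10 to 11 weeks, homozygous for the targeted allele Bcat2tm1.2Clyn, and the WT mice were 4 males of 9 to 10 weeks, all 8 on a C57BL6 background. Body weights in the labels were 15 to 24 g in the Bcat2 KO mice and 22 to 25 g in the WT mice. KO weights cannot be matched to single KO columns, and the part of weight in the values was not tested. Dams and weaned mice of both genotypes could choose between a standard chow and a purified diet lacking branched-chain amino acids. Muscle was excised from mice anaesthetised with isoflurane and frozen at once, per the labels' protocols. The labels name no tissue-specific driver for the deletion. Whole muscle was sequenced, so fewer cells of a type and less RNA per cell cannot be told apart.

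The product of Bcat2 is BCATm, an enzyme of mitochondria that removes the amino group of leucine, isoleucine and valine and so begins their catabolism. mTORC1 is the protein kinase complex that promotes protein synthesis when amino acids and growth factors are present, and leucine is among the amino acids it responds to most strongly. Amino acids act through the Rag GTPases, which Ragulator anchors to the lysosome and which bring mTORC1 to its surface. There Rheb switches the kinase on, unless the TSC complex has turned Rheb off. GATOR1 inactivates RagA and RagB, GATOR2 opposes GATOR1, and folliculin acts on RagC and RagD. Most of this control is exerted on proteins, by phosphorylation, nucleotide binding and movement to the lysosome, none of which mRNA levels report.

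The mRNA level of the targeted gene was examined first. Bcat2 was at 2.89, 5.26, 2.91 and 2.09 FPKM in the Bcat2 KO mice KO5 to KO8, against 83.0, 42.7, 46.0 and 41.2 FPKM in the WT mice WT1 to WT4. FPKM counts sequenced fragments relative to exon length and to the library's mapped fragments, so levels can be set side by side between genes. Bcat2 fell by 3.65 on the log2(FPKM + 1) scale (limma adjusted p = 0.00245, Benjamini-Hochberg over all 11118 tested genes), lower in 4 of 4 KO mice. With WT3 and KO8 left out, the estimate was -3.56 and did not pass (limma adjusted p = 0.187). FPKM summed to between 721012 and 896190 in the KO libraries and between 691168 and 803465 in the WT libraries. Depth relative to WT2, estimated from genes of low FPKM, ran from 0.547 to 1.21 in KO mice and from 0.435 to 1.22 in WT mice. Markers of muscle fibres, 5 of 6 found, summed to between 49696 and 81335 FPKM in KO mice and between 49718 and 58675 FPKM in WT mice. This sum was mostly Mylpf, Tnnt3 and Ckm, with Mylpf at 49688 FPKM in KO5. KO means were 133% of the WT mean for Mylpf, 99.1% for Ckm, 89.9% for Tnnt3, 64.7% for Myh4 and 39.6% for Myh1. Groups did not overlap for Myh1 alone, and neither myosin passed (limma adjusted p = 0.480 for Myh4 and 0.495 for Myh1). Myh1 was listed at 0 in KO7 and at 60.9 to 108 FPKM in the other KO mice, against 110 to 245 FPKM in WT mice. Marker sums of other cells also varied, with Schwann cells at 73.5 to 179 FPKM in KO mice and 49.2 to 92.2 FPKM in WT mice, endothelium at 20.1 to 39.9 FPKM in KO mice and 36.2 to 60.4 FPKM in WT mice, and fibroblasts and tendon at 75.3 to 274 FPKM in KO mice and 183 to 409 FPKM in WT mice. KO6 alone carried skin keratinocyte transcripts, 464 FPKM in sum against at most 2.64 FPKM elsewhere. The part of these cells in the values of the members was not tested.

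Of the 30 tested members, 0 passed the limma threshold of an adjusted p of 0.05. Over all tested genes, 0.027% did (1 higher and 2 lower in KO). At an unadjusted limma p under 0.05 there were 3 members, Mlst8, Tbc1d7 and Eif4ebp2, all lower in KO, where 7.33% of all tested genes were lower and 2.99% were higher by that measure. All 4 KO values lay below all 4 WT values in 3 members, Mlst8, Tsc2 and Wdr59, and above them in 0 members, against 4.68% and 2.08% of all tested genes. The log2 differences of the 30 members, KO minus WT, ran from -0.63 to 0.29 with a median of -0.14, beside a median of -0.12 over all tested genes. Estimates lay below 0 for 25 of the 30 (63.6% of all tested genes), but for 13 of 30 after median-ratio scaling of the libraries, which moved the median of all genes to -0.0020. Relative to the median of all genes, 16 members lay below and 14 above. The 95% intervals of 27 of the 30 members included 0.

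**Figure D1:**
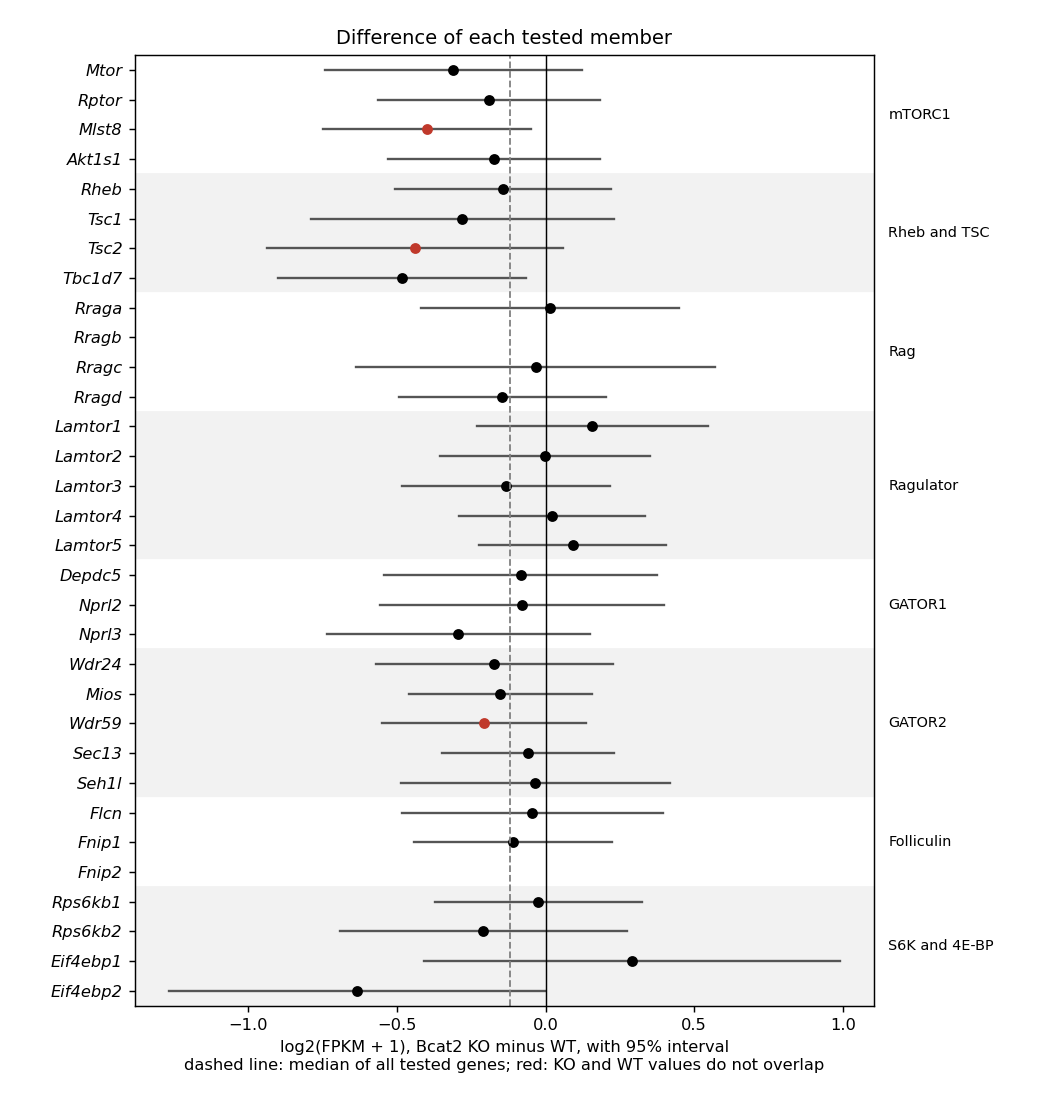
Difference in log2(FPKM + 1), Bcat2 KO minus WT, for each of the 30 tested members, grouped by complex, with 95% limma intervals. The dashed line is the median of all tested genes at -0.12, the 3 red points are members whose KO and WT values do not overlap, and the rows of Rragb and Fnip2 are empty because both were under the filter.

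Muscle of these mice held the transcripts of the complexes at very different levels. Averaged over the 8 mice, Lamtor1, the lipidated Ragulator subunit that tethers the complex to the lysosome, was highest at 82.8 FPKM, followed by the Ragulator subunit Lamtor4 at 79.0 FPKM and Rheb at 77.6 FPKM. These 3 averages differed by less than the spread of each gene between mice. At the other end stood Fnip2, a partner of folliculin, at 0.625 FPKM, and Rragb at 0.792 FPKM. The catalytic subunit Mtor itself averaged only 2.54 FPKM, and the GATOR1 subunit Depdc5, 1.42 FPKM.

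**Figure D2:**
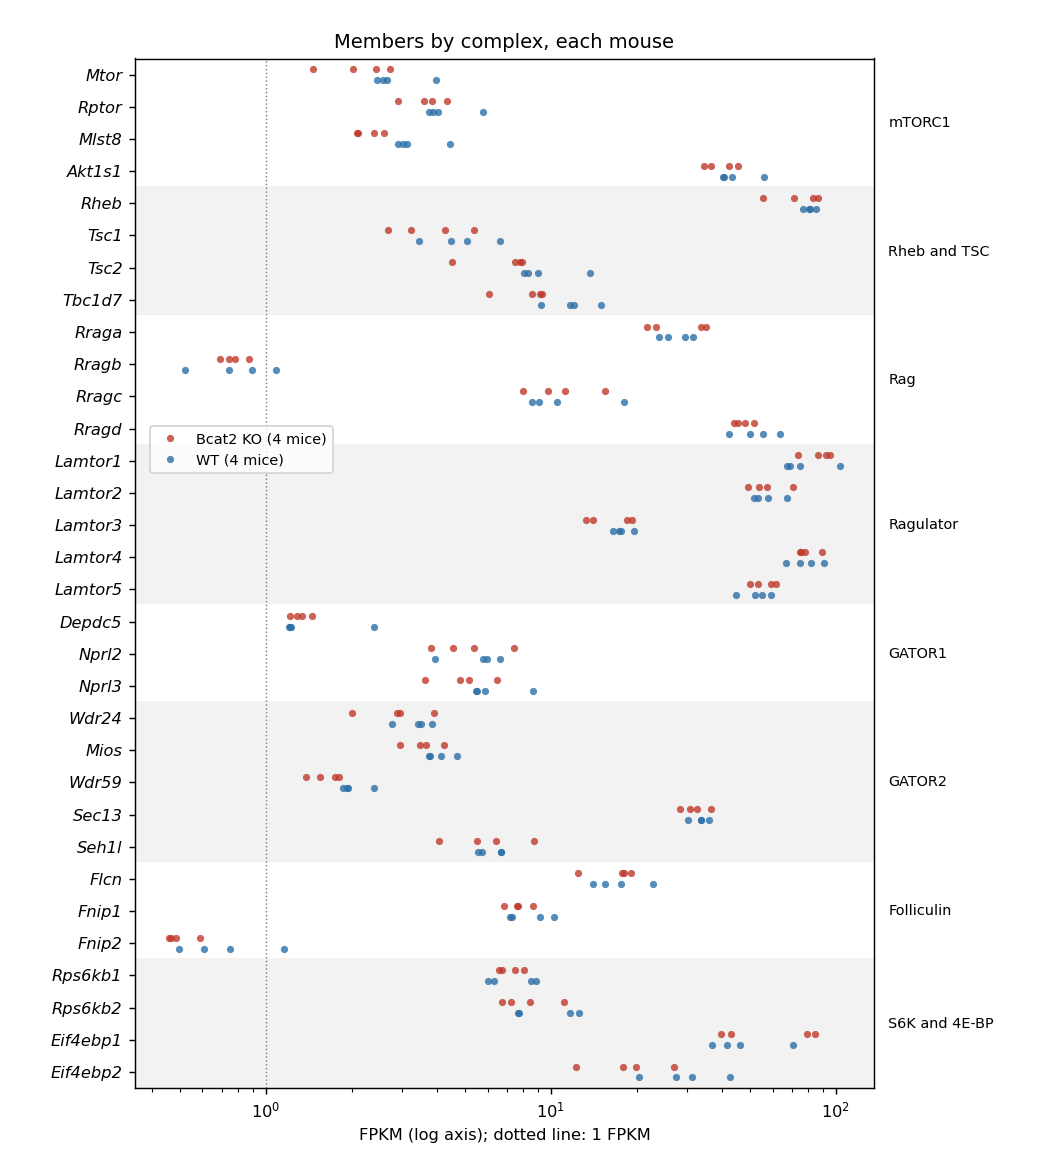
FPKM of the 32 members in each mouse on a log axis, 4 Bcat2 KO mice (red, upper row of each gene) and 4 WT mice (blue, lower row), grouped by complex. The KO and WT points overlap for most members, and Rragb and Fnip2 lie around the dotted line at 1 FPKM.

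Start-site sequence was examined because one of the motifs searched, CACGTG, is the core of the E-box bound by factors such as TFEB, TFE3 and MITF, which act on lysosomal genes and are themselves regulated by mTORC1. RefSeq promoter windows (GRCm38.p6, 250 bases before to 50 after the start) were matched for 27 of the 32 members. CACGTG, which reads the same on both strands, was present in 7 of the 27 (25.9%), against 7.15% of all 32851 windows. TGATGNAA, the core of the ATF4 site, was searched on both strands and was present in 1 of the 27, that of Lamtor4 (3.7%, against 3.97% of all windows). Where the 2 motifs meet they can share at most 2 letters, and a match describes the sequence only. The 10 CACGTG sites are shown with 10 bases on either side and the motif in capitals, because they are what these 7 start regions have in common.
Rheb, 96 bases before the start: cgcgcgcggtCACGTGggtgtgttgt
Tbc1d7, 53 bases before the start: ggttaacatcCACGTGtgggtgggac
Rragb, 127 bases before the start: gagcccgggcCACGTGatggcgggtg
Rragb, 36 bases before the start: agggtagcggCACGTGacaggccctg
Rragb, 3 bases before the start: ggcaggttccCACGTGatcctggcct
Rragc, 112 bases before the start: tgattccgggCACGTGatagtaccac
Lamtor1, 68 bases before the start: gccttcctatCACGTGccgcgggtcc
Lamtor4, 120 bases before the start: agaaagttaaCACGTGaacagctttt
Lamtor4, 104 bases before the start: aacagcttttCACGTGtaaaccaaac
Fnip1, 75 bases before the start: agtttgctgcCACGTGatacggctcg

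The 7 members with this motif came from 4 of the 8 groups and showed no common direction. Of the 6 that were tested, Lamtor1 and Lamtor4 had log2 differences of 0.16 and 0.022, and Rheb, Tbc1d7, Rragc and Fnip1 had -0.14, -0.48, -0.033 and -0.11.

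mTORC1 consists of the kinase Mtor, the scaffold Rptor (raptor) that binds substrates, Mlst8 on the kinase domain, and the inhibitory subunit Akt1s1 (PRAS40). All 4 estimates lay below 0, with a median log2 difference of -0.25, that is -0.13 relative to all genes. Mlst8 (ENSMUSG00000024142, mm10 chromosome 17, 24473550 to 24479078, minus strand) was at 2.10, 2.39, 2.61 and 2.09 FPKM in KO mice, against 3.12, 3.04, 4.44 and 2.92 FPKM in WT mice. The highest KO mouse lay below the lowest WT mouse, and WT3 stood well above the other WT mice. The KO mean of 2.30 ± 0.25 FPKM was 68.0% of the WT mean of 3.38 ± 0.712 FPKM (SD, n = 4 each). The log2 difference of -0.40 (SE 0.15, 95% interval -0.75 to -0.05) had a limma adjusted p = 0.480 and did not pass. Its exact permutation p was 0.0286 (2-sided), the smallest that 4 against 4 mice can give. Every gene whose groups do not overlap gets this p, so for genes named for that separation it adds no further evidence. After median-ratio scaling the log2 difference was -0.29, and without WT3 it was also -0.29.

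Mlst8 shares 22.5% of its annotated exon bases with Bricd5 on the opposite strand. The library kit is not described as keeping strand, so reads of the 2 genes cannot be told apart there and the values of both are uncertain. Bricd5 was at 1.90, 2.33, 2.51 and 1.52 FPKM in KO mice, against 2.73, 2.22, 3.21 and 2.51 FPKM in WT mice, with overlapping groups.

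Mtor was at 2.02, 2.44, 2.73 and 1.47 FPKM in KO mice, against 2.58, 2.67, 3.95 and 2.46 FPKM in WT mice. KO7 lay above 3 of the 4 WT mice, and WT3 was the highest (log2 difference -0.31, SE 0.19, limma adjusted p = 0.517). Rptor averaged 3.66 ± 0.582 FPKM in KO mice and 4.35 ± 0.965 FPKM in WT mice (SD, n = 4 each), and Akt1s1 averaged 39.7 ± 4.97 FPKM in KO mice and 45.0 ± 7.39 FPKM in WT mice (SD, n = 4 each). For both, the groups overlapped, KO8 was lowest and WT3 highest of the 8. Akt1s1 was thus listed at more than 10 times the FPKM of the other 3 subunits in these averages.

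Rheb is the small GTPase that activates mTORC1, and Tsc1, Tsc2 and Tbc1d7 form the TSC complex, in which Tsc2 carries the activity that turns Rheb off. This group had the lowest median of the 8, with a log2 difference of -0.36, that is -0.24 relative to all genes. Tsc2 (chromosome 17, 24595937 to 24632629, minus strand) was at 7.50, 7.78, 7.92 and 4.50 FPKM in KO mice, against 8.06, 8.33, 13.7 and 8.98 FPKM in WT mice. The groups did not overlap, but 3 KO mice and 3 WT mice lay close together, between 7.50 and 8.98 FPKM, and the difference of means was carried largely by KO8 and WT3. The KO mean of 6.93 ± 1.63 FPKM was 70.9% of the WT mean of 9.77 ± 2.66 FPKM (SD, n = 4 each). The log2 difference was -0.44 (SE 0.22, 95% interval -0.94 to 0.058, limma adjusted p = 0.485, exact permutation p = 0.0286). It was -0.28 without WT3, -0.27 without KO8 and -0.11 without both. Tsc2 shares 7.20% of its annotated exon bases with Pkd1 on the opposite strand, so its value is uncertain. Pkd1 was at 0.729 to 2.07 FPKM in KO mice, against 1.70 to 3.17 FPKM in WT mice, with overlapping groups (log2 difference -0.48, limma adjusted p = 0.486).

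Tbc1d7, the third subunit of the TSC complex (chromosome 13, 43151744 to 43171501, minus strand), was at 9.19, 9.30, 8.60 and 6.06 FPKM in KO mice, against 11.7, 9.22, 15.0 and 12.1 FPKM in WT mice. WT2 alone lay inside the KO range, and the other 3 WT mice lay above every KO mouse. The KO mean of 8.29 ± 1.52 FPKM was 69.0% of the WT mean of 12.0 ± 2.36 FPKM (SD, n = 4 each), with a log2 difference of -0.48 (SE 0.18, 95% interval -0.90 to -0.066, limma adjusted p = 0.480, exact permutation p = 0.0571). It was the 1 member of 30 whose groups did not overlap after quantile scaling, where 6.28% of all tested genes did not. It was also the 1 after removal of the length and GC trend, where 5.24% did not. The log2 differences of Tbc1d7 were then -0.39 and -0.42. After median-ratio scaling the groups did not overlap for Mlst8 and Tbc1d7, and for 6.49% of all tested genes. Without both WT3 and KO8 the difference of Tbc1d7 was -0.25.

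Tsc1, which stabilises Tsc2, was at 3.24, 4.25, 5.39 and 2.69 FPKM in KO mice, against 3.46, 4.48, 6.66 and 5.10 FPKM in WT mice. The ranges overlapped widely, with KO7 above 3 of the WT mice (log2 difference -0.28, limma adjusted p = 0.611). Rheb was at 83.2, 86.4, 71.5 and 55.5 FPKM in KO mice, against 80.6, 76.7, 81.4 and 85.1 FPKM in WT mice. Here KO6 was the highest of the 8 mice and KO8 the lowest (log2 difference -0.14, limma adjusted p = 0.678).

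**Figure D3:**
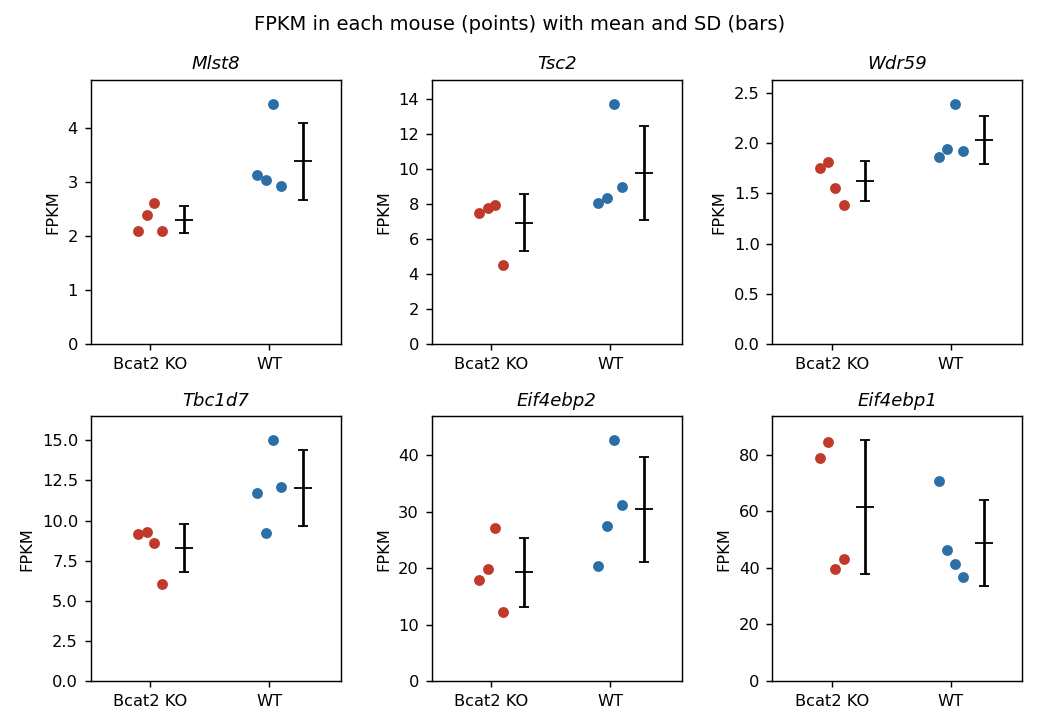
FPKM of 6 members in each mouse (points, KO5 to KO8 in red and WT1 to WT4 in blue, left to right) with the group mean and SD (bars), from 0. KO and WT points do not overlap for Mlst8, Tsc2 and Wdr59, overlap by WT2 alone for Tbc1d7, and overlap widely for Eif4ebp1. WT3 is highest in 5 panels.

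The start regions of the 3 members with non-overlapping groups are shown so that they can be read beside these values. None of the 3 holds CACGTG or TGATGNAA within the window. Each line is 300 bases, 5′ to 3′ on the strand of the gene.
Mlst8, chr17:24479029-24479328, minus strand: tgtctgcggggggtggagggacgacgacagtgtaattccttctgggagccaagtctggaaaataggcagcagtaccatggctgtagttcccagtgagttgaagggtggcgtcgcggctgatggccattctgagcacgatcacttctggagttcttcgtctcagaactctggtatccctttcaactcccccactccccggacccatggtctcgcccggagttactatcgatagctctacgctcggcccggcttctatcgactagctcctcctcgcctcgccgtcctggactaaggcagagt
Tsc2, chr17:24632578-24632877, minus strand: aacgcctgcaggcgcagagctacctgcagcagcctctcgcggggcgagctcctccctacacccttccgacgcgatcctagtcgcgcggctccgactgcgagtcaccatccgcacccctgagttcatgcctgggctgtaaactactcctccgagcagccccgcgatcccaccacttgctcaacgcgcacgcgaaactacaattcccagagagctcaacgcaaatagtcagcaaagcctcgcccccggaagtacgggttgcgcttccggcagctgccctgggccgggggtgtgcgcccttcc
Wdr59, chr8:111522058-111522357, minus strand: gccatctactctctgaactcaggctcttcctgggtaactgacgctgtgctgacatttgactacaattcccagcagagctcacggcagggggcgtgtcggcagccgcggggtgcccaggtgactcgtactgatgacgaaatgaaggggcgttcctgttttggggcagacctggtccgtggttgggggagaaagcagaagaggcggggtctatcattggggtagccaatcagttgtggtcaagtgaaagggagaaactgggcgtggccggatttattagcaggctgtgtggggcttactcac

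The Rag GTPases work as pairs of RagA or RagB with RagC or RagD. Muscle expressed 1 gene of each choice far above the other. Rraga was at 33.7, 35.1, 23.4 and 21.8 FPKM in KO mice, against 31.5, 24.1, 29.6 and 25.8 FPKM in WT mice, and Rragb was at 0.693, 0.871, 0.744 and 0.783 FPKM in KO mice, against 0.522, 0.895, 0.745 and 1.08 FPKM in WT mice. Neither gene separated the genotypes: Rraga had a log2 difference of 0.015 (SE 0.19, limma adjusted p = 0.978), and Rragb, with a mean under 1 FPKM, was not tested. Within a mouse, Rraga had 27.8 to 48.6 times the FPKM of Rragb in KO mice and 23.8 to 60.3 times in WT mice.

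Rragd exceeded Rragc in every mouse, by 3.09 to 5.72 times in KO mice and by 2.32 to 6.10 times in WT mice. Rragd was at 43.7, 48.0, 51.7 and 45.5 FPKM in KO mice, against 42.1, 55.4, 63.8 and 50.1 FPKM in WT mice (log2 difference -0.15, SE 0.15, limma adjusted p = 0.660). The KO values all lay within the WT range. Rragc was at 11.2, 15.5, 9.78 and 7.96 FPKM in KO mice, against 18.1, 9.08, 10.6 and 8.62 FPKM in WT mice (log2 difference -0.033, SE 0.27, limma adjusted p = 0.962). WT1 and KO6 were its 2 highest mice, and they were also the 2 with the most adipocyte transcripts. The summed FPKM of all 7 adipocyte markers listed was 8266 in KO6 and 1328 to 2030 in the other KO mice, against 15703 in WT1 and 614 to 738 in the other WT mice, and its part in the Rragc values was not tested. Rragc shares 7.90% of its exon bases with 4930535I16Rik on the opposite strand, a gene listed at 0 in every mouse. Signs of both log2 differences depended on the scaling, with 0.10 for Rragc and 0.0023 for Rragd after median-ratio scaling.

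The 2 start regions of this pair are shown because Rragc holds CACGTG, in capitals, and Rragd, the gene with the higher level here, does not. TGATGNAA was found in neither.
Rragd, chr4:32982748-32983047, plus strand: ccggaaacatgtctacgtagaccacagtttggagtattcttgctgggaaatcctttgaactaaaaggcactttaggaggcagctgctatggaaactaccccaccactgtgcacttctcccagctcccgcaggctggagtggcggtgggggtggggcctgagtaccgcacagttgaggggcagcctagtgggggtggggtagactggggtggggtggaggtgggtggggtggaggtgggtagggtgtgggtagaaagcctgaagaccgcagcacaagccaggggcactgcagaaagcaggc
Rragc, chr4:123917183-123917482, plus strand: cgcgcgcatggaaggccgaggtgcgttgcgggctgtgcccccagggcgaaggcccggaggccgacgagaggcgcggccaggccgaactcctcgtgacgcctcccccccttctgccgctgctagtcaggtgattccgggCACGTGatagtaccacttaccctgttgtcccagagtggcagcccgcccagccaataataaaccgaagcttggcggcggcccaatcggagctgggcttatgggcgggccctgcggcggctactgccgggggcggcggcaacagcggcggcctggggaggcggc

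Ragulator, formed by Lamtor1 to Lamtor5, is the scaffold that holds the Rag GTPases on the lysosome. Its transcripts were abundant, 4 of the 5 above 50 FPKM on average, and its median log2 difference was 0.022, that is 0.14 above the median of all genes, the highest of the 8 groups. Lamtor1 was at 95.2, 92.2, 73.7 and 86.7 FPKM in KO mice, against 103, 75.0, 67.5 and 68.8 FPKM in WT mice. WT1 was the highest of the 8 mice and the other 3 WT mice lay among or below the KO values (log2 difference 0.16, SE 0.17, 95% interval -0.23 to 0.55, limma adjusted p = 0.671). Lamtor1 shares 18.7% of its annotated exon bases with Lrrc51 on the opposite strand, so its value is uncertain. The deposited locus ends at 101911901 but the annotated one at 101926675, so the share of the measured bases is not known.

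The other 4 subunits had equally small differences. Lamtor2 averaged 57.8 ± 9.15 FPKM in KO mice and 57.6 ± 7.19 FPKM in WT mice, and Lamtor4 averaged 79.5 ± 6.65 FPKM in KO mice and 78.6 ± 10.1 FPKM in WT mice (SD, n = 4 each). Lamtor5 averaged 56.1 ± 5.39 FPKM in KO mice and 52.7 ± 6.14 FPKM in WT mice, and Lamtor3, the least abundant, 16.3 ± 3.04 FPKM in KO mice and 17.8 ± 1.32 FPKM in WT mice (SD, n = 4 each). Their limma adjusted p-values ran from 0.694 for Lamtor3 to 0.997 for Lamtor2. The widest of the 5 intervals, that of Lamtor1, reached 0.55 on the log2 scale, so differences of that size remain within the error of these mice.

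GATOR1, made of Depdc5, Nprl2 and Nprl3, is the brake that inactivates RagA and RagB when amino acids are scarce. Its median log2 difference was -0.084, above that of all genes by 0.034. Nprl3 was at 5.18, 6.50, 4.79 and 3.62 FPKM in KO mice, against 5.52, 5.88, 8.69 and 5.45 FPKM in WT mice. KO6 lay above 3 WT mice, and WT3 stood apart from the other WT mice (log2 difference -0.29, SE 0.19, limma adjusted p = 0.540). The difference was -0.16 without WT3, -0.17 without KO8, -0.037 without both, and -0.10 with the length and GC trend removed. Nprl3 shares 17.7% of its annotated exon bases with Mpg on the opposite strand, so its value is uncertain as well. Depdc5 was at 1.29, 1.21, 1.46 and 1.34 FPKM in KO mice, against 1.22, 1.20, 2.39 and 1.21 FPKM in WT mice. Apart from WT3, all 7 mice lay between 1.20 and 1.46 FPKM. Nprl2 averaged 5.29 ± 1.57 FPKM in KO mice and 5.58 ± 1.16 FPKM in WT mice (SD, n = 4 each).

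GATOR2 holds Wdr24, Mios, Wdr59, Sec13 and Seh1l, of which Sec13 and Seh1l also serve in the nuclear pore. All 5 estimates lay below 0, and the group's median of -0.15 differed from that of all genes by -0.033. Wdr59 (chromosome 8, 111448784 to 111522107, minus strand) was at 1.75, 1.81, 1.55 and 1.38 FPKM in KO mice, against 1.86, 1.94, 2.39 and 1.92 FPKM in WT mice. The groups did not overlap, but the gap between KO6 and WT1 was narrow, and the KO mean of 1.62 ± 0.197 FPKM was 80.0% of the WT mean of 2.03 ± 0.242 FPKM (SD, n = 4 each). The log2 difference of -0.21 (SE 0.15, 95% interval -0.55 to 0.14, limma adjusted p = 0.579, exact permutation p = 0.0286) was 0.035, of the other sign, once the trend with transcript length and GC content was removed.

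Sec13 was the most abundant GATOR2 transcript, at 32.1 ± 3.38 FPKM in KO mice and 33.4 ± 2.33 FPKM in WT mice (SD, n = 4 each). Mios averaged 3.57 ± 0.521 FPKM in KO mice and 4.07 ± 0.442 FPKM in WT mice, and Wdr24 averaged 2.93 ± 0.771 FPKM in KO mice and 3.39 ± 0.449 FPKM in WT mice (SD, n = 4 each). Seh1l averaged 6.19 ± 1.96 FPKM in KO mice and 6.18 ± 0.606 FPKM in WT mice. The groups overlapped for these 4, with limma adjusted p-values from 0.613 for Mios to 0.948 for Seh1l, and KO8 was the lowest mouse for all 5 GATOR2 members.

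Flcn, folliculin, forms a complex with Fnip1 or Fnip2 that acts on RagC and RagD. Flcn averaged 16.9 ± 2.98 FPKM in KO mice and 17.5 ± 3.87 FPKM in WT mice (SD, n = 4 each). Fnip1 was at 6.84, 8.67, 7.64 and 7.68 FPKM in KO mice, against 7.17, 7.28, 9.14 and 10.3 FPKM in WT mice, with overlapping groups (log2 difference -0.11, SE 0.15, limma adjusted p = 0.733). Fnip2 was at 0.465, 0.586, 0.457 and 0.484 FPKM in KO mice, against 0.606, 0.495, 1.16 and 0.748 FPKM in WT mice, and was not tested. KO6 lay inside the WT range of Fnip2 and the other 3 KO mice lay below every WT mouse. Fnip1 had 14.7 to 16.7 times the FPKM of Fnip2 in KO mice and 7.87 to 14.7 times in WT mice.

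The S6 kinases and the 4E-BP proteins are the best known substrates of mTORC1 in the control of translation. Rps6kb1, which encodes S6 kinase 1, was at 8.02, 6.61, 7.48 and 6.76 FPKM in KO mice, against 6.02, 6.32, 8.89 and 8.53 FPKM in WT mice, and the KO values lay within the WT range (log2 difference -0.025, SE 0.15, limma adjusted p = 0.951). Rps6kb2, which encodes S6 kinase 2, was at 8.47, 7.23, 11.1 and 6.73 FPKM in KO mice, against 11.7, 7.68, 12.6 and 7.74 FPKM in WT mice (log2 difference -0.21, SE 0.21, limma adjusted p = 0.648). WT1, WT3 and KO7 were its 3 highest mice. Rps6kb2 shares 23.7% of its annotated exon bases with Ptprcap on the opposite strand, which was listed at 13.8 FPKM in KO6 and at 0 in the other 7 mice. The deposited locus of Rps6kb2 starts at 4156713 but the annotated one at 4153991, so the share of the measured bases is not known.

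Eif4ebp2, a repressor of cap-dependent translation that mTORC1 inactivates, had the lowest log2 difference of the 30 tested members. It was at 17.9, 19.9, 27.1 and 12.3 FPKM in KO mice, against 20.4, 27.4, 42.7 and 31.2 FPKM in WT mice. KO7 lay among the WT values and the other 3 KO mice lay below them, while KO8 was lowest and WT3 highest. The KO mean of 19.3 ± 6.13 FPKM was 63.4% of the WT mean of 30.4 ± 9.29 FPKM (SD, n = 4 each). The log2 difference was -0.63 (SE 0.28, limma adjusted p = 0.484, exact permutation p = 0.0571), and -0.27 without WT3 and KO8. In the authors' deposited table Eif4ebp2 carried the flags for p under 0.05 and for p under 0.001, and Tbc1d7 the flag for p under 0.05. No other member carried one. The flag for p under 0.05 was carried by 20.2% of all tested genes, and the share for p under 0.001 was not computed. How the flags were tested was not stated in the sources used here.

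Eif4ebp1, the paralog of Eif4ebp2 and the more abundant in muscle here, had the highest log2 difference of the members. It was at 78.9, 84.5, 39.5 and 43.0 FPKM in KO mice, against 70.7, 46.2, 41.5 and 36.9 FPKM in WT mice. KO5, KO6 and WT1 were high and the other 5 mice lay between 36.9 and 46.2 FPKM, so the groups overlapped (log2 difference 0.29, SE 0.31, 95% interval -0.41 to 0.99, limma adjusted p = 0.663). The estimate depended on single mice, at 0.11 without KO6, 0.14 without KO5, 0.17 without WT4, 0.48 without WT1 and 0.47 without KO7. KO6, KO5 and WT1 also had the 3 highest adipocyte sums. KO5, at 2030 FPKM, lay much nearer to KO7 (1352 FPKM) and KO8 (1328 FPKM) than to KO6 (8266 FPKM) or WT1 (15703 FPKM). The part of these transcripts in the Eif4ebp1 values was not tested.

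The balance within each pair of paralogs was compared inside each mouse, where the scaling of a library has little weight if both genes lie well above 1 FPKM. Rragb and Fnip2 averaged under 1 FPKM, so with 1 added their log2 ratios still depend on the scaling. The log2 ratio of Eif4ebp1 to Eif4ebp2, each as FPKM + 1, was 2.08, 2.03, 0.53 and 1.73 in KO mice, against 1.74, 0.73, -0.039 and 0.23 in WT mice. KO5 and KO6 lay above every WT mouse, KO7 and KO8 lay within the WT range, and the means of 1.59 ± 0.73 in KO mice and 0.67 ± 0.79 in WT mice (SD, n = 4 each) differed by 0.92. Eif4ebp1 had 1.46 to 4.40 times the FPKM of Eif4ebp2 in KO mice and 0.972 to 3.46 times in WT mice. The log2 ratio averaged 4.03 ± 0.34 in KO mice and 3.99 ± 0.35 in WT mice for Rraga to Rragb, and -2.03 ± 0.38 in KO mice and -2.14 ± 0.65 in WT mice for Rragc to Rragd (SD, n = 4 each). It averaged -0.17 ± 0.23 in KO mice and -0.36 ± 0.41 in WT mice for Rps6kb1 to Rps6kb2, and 2.54 ± 0.08 in KO mice and 2.43 ± 0.20 in WT mice for Fnip1 to Fnip2 (SD, n = 4 each). On this scale the groups overlapped in all 5 pairs.

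**Figure D4:**
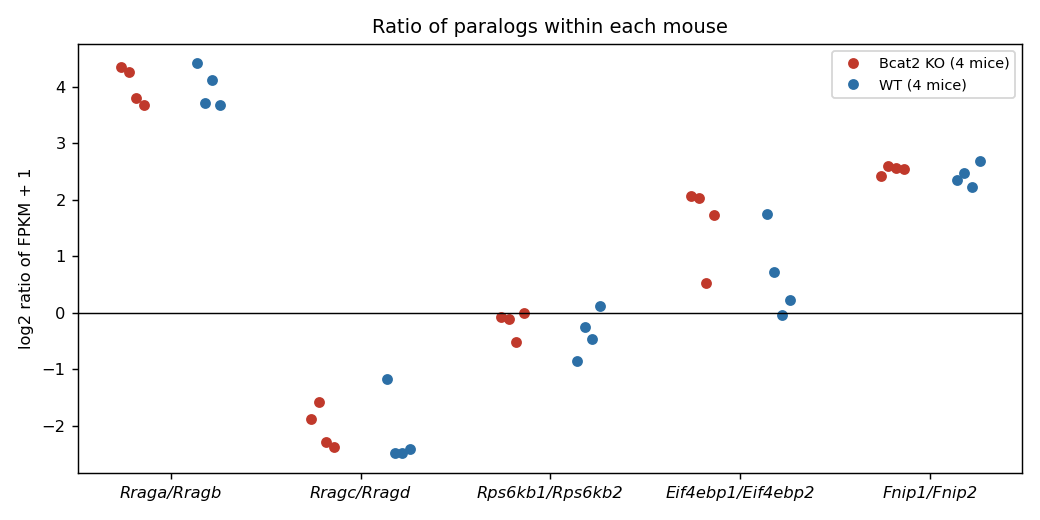
Log2 ratio of FPKM + 1 between the paralogs of 5 pairs in each mouse, Bcat2 KO (red, left) and WT (blue, right). The groups overlap in every pair, the widest scatter is that of Eif4ebp1 to Eif4ebp2, and WT1 lies apart from the other 3 WT mice for Rragc to Rragd.

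The spread of the members between mice had a common shape. WT3 was the highest of the 8 mice in 17 of the 30 tested members (56.7%, against 33.5% of all tested genes), and KO8 was the lowest in 22 (73.3%, against 50.8%). Ragulator was the exception, with WT3 lowest in 3 of its 5 members. Taken as deviations from each gene's own 8-mouse mean, the members had a median of -0.33 in KO8 and -0.060 to 0.057 in the other KO mice, against 0.25 in WT3 and -0.033 to 0.033 in the other WT mice. Once the median deviation of all genes in the same mouse was subtracted, it lay between -0.086 and 0.021 in KO mice and between -0.074 and 0.087 in WT mice, with overlapping groups. By the same measure the Rheb and TSC group lay between -0.22 and -8.7e-05 in KO mice and between -0.074 and 0.38 in WT mice, and Ragulator lay between -0.029 and 0.24 in KO mice and between -0.39 and 0.12 in WT mice. In these and in the other 6 groups the genotypes overlapped.

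**Figure D5:**
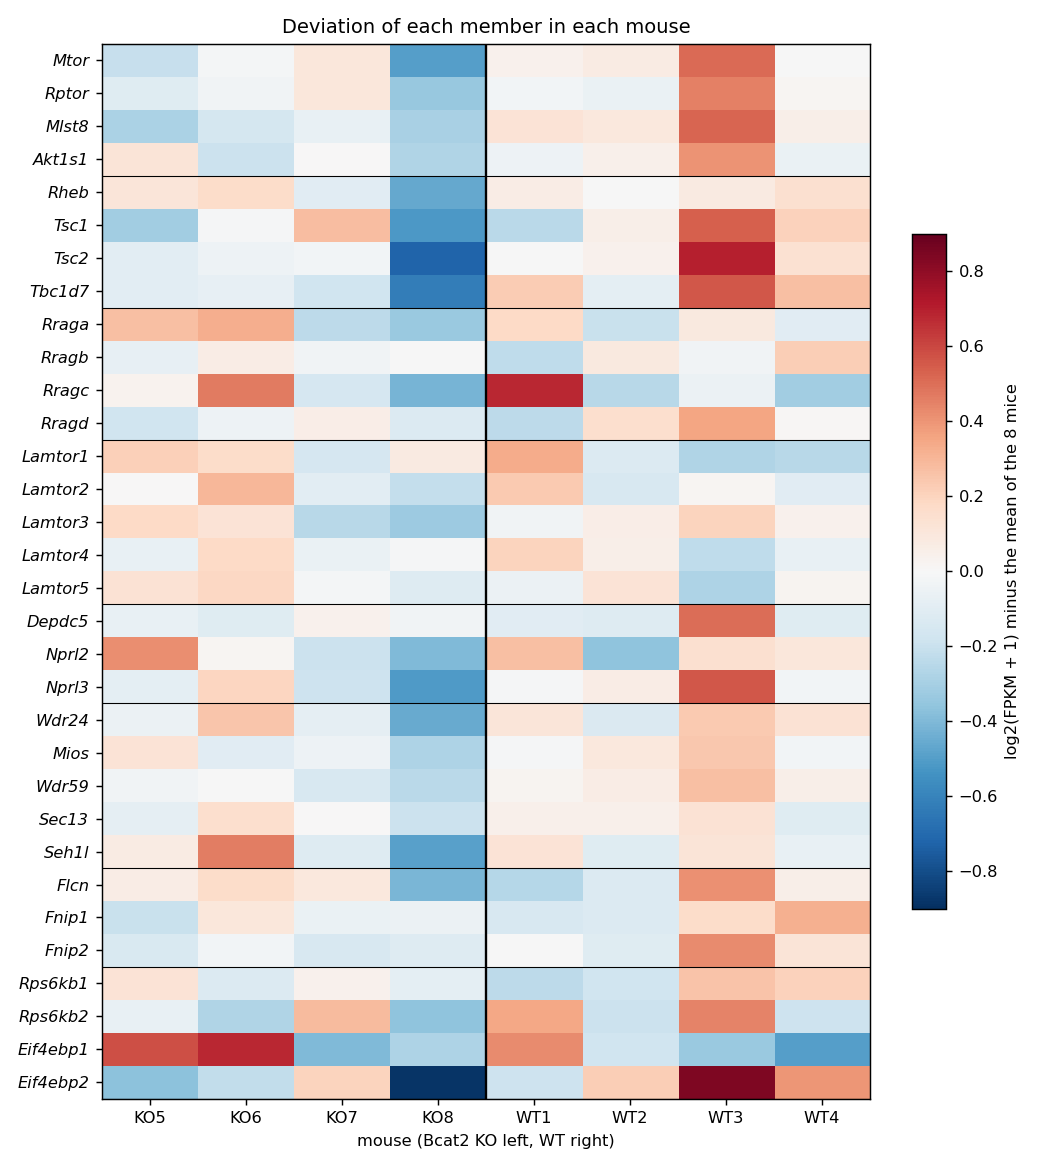
Deviation of log2(FPKM + 1) of each member from its mean over the 8 mice, with Bcat2 KO mice on the left and WT mice on the right, and lines between complexes. KO8 is blue in most rows and WT3 red in most rows, while WT3 is clearly blue for 3 of the 5 Ragulator genes and for Eif4ebp1.

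The members also differ in length, and the differences followed it. Across the 30 tested members, Spearman's rho between the longest annotated transcript and the log2 difference was -0.60, and across 11024 tested genes with a length it was -0.26. Both are descriptions across genes of the same 8 libraries, and genes are not independent replicates. Ragulator transcripts were among the shortest, 668 to 2726 bases, and those of Rheb and the TSC complex ran from 2624 to 7702 bases. The part of length in the difference between these groups was not tested. With the trend on length and GC content removed in each mouse, the log2 differences were -0.17 for Mlst8, -0.13 for Tsc2, -0.34 for Eif4ebp2 and -0.42 for Tbc1d7.

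Another 58 genes that act with these members were listed from knowledge of the pathway: amino acid sensors and regulators, inhibitors, the v-ATPase of the lysosome, mTORC2, assembly factors, upstream kinases, and substrates and outputs. Of these, 57 were found and 51 tested, and 0 passed the limma threshold in either direction. At an unadjusted limma p under 0.05 there were 2 higher in KO, Ddit4l and Ddit4, and 2 lower, Larp1 and Itfg2, where 2.99% of all tested genes were higher and 7.33% lower. The median log2 difference was -0.15, beside -0.12 over all genes.

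Ddit4l and Ddit4 (REDD1) encode inhibitors that act on mTORC1 through the TSC complex, and both had groups that did not overlap. They were the only 2 of the 51, both higher in KO, where 2.08% of all tested genes had non-overlapping groups that were higher and 4.68% had ones that were lower. Ddit4l was at 823, 719, 863 and 625 FPKM in KO mice, against 452, 521, 335 and 488 FPKM in WT mice (log2 difference 0.76, SE 0.17, limma adjusted p = 0.480, exact permutation p = 0.0286). The lowest KO mouse, KO8, lay above the highest WT mouse, WT2. Ddit4 was at 12.4, 22.0, 5.95 and 4.85 FPKM in KO mice, against 3.64, 3.61, 4.77 and 3.16 FPKM in WT mice (log2 difference 1.15, SE 0.40, limma adjusted p = 0.480, exact permutation p = 0.0286). KO8 and WT3 almost met, and KO5 and KO6 stood above the rest. Deptor, the third inhibitor listed, averaged 7.09 ± 1.88 FPKM in KO mice and 8.52 ± 1.35 FPKM in WT mice (SD, n = 4 each). Both Ddit4l and Ddit4 had been seen in earlier results of these data when the list was made, so their direction is no independent evidence.

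Among the other groups, 9 of 15 v-ATPase subunits lay above the median of all genes, and their median log2 difference of 0.13 was 0.25 over it. This excess was 0.28 after median-ratio scaling, 0.15 after quantile scaling and 0.080 with the length and GC trend removed. Of the 14 substrates and outputs, 12 lay below 0, as did 63.6% of all tested genes, and 10 lay below the median of all genes. Their median of -0.26 was -0.15 relative to all genes, and -0.054 with the length and GC trend removed. Larp1, an mTORC1 substrate that binds mRNAs of the translation machinery, averaged 8.55 ± 2.14 FPKM in KO mice and 13.8 ± 3.93 FPKM in WT mice, with overlapping groups (SD, n = 4 each; limma adjusted p = 0.480). Itfg2, a subunit of the KICSTOR complex that holds GATOR1 at the lysosome, averaged 4.03 ± 0.545 FPKM in KO mice and 5.40 ± 0.534 FPKM in WT mice, with overlapping groups (SD, n = 4 each; limma adjusted p = 0.480). Slc38a9, the lysosomal arginine sensor, was at 0.846, 0.683, 0.738 and 0.544 FPKM in KO mice, against 0.947, 0.877, 0.971 and 0.977 FPKM in WT mice. Its groups did not overlap, but its mean was under 1 FPKM and it was not tested. Larp1, Itfg2, Deptor and Slc38a9 are named after their values were seen.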

How the data were processed

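Messenger RNA of gastrocnemius from 4 Bcat2 KO and 4 WT mice was read for 50 cycles from one end of TruSeq RNA v2 libraries, per the labels' protocols. Alignment used TopHat 2.0.9 and the mm10 assembly, and Cufflinks 2.0.2 computed the expression values from unique alignments, per the labels' protocols, while the submitters' processing notes name Cufflinks 2.2.1. Neither the annotation nor a strand setting was given in the sources used here. The authors deposited FPKM per gene and mouse, together with flags of 0 or 1 for thresholds of their own p-value, which the deposited table does not otherwise give. No read totals were used, so no counting interval is given and the spread between mice sets the precision. KO columns name the genotype but match no single labelled mouse. The limma p-values set the genotype difference against the spread of mice within groups, which the fit draws toward a trend over all tested genes.

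Where rows shared a symbol, the one with the highest mean represented it. Genes with a mean of at least 1 FPKM were tested with limma-trend on log2(FPKM + 1), KO minus WT, genotype as the only term, 2-sided, with Benjamini-Hochberg adjustment over 11118 genes and a threshold of 0.05. This scale understates differences of genes with low FPKM. Exact permutation tests over the mice are given for single genes. Where groups do not overlap, that separation fixes the permutation p at 0.0286. Relative depth is the inverse of the most common ratio of a mouse's FPKM to that of WT2, over genes above 0 and under 0.3 FPKM in both. Positions are the deposited start plus 1, which equalled the GENCODE start for 18 of the 32 members. Exon overlaps and transcript lengths come from GENCODE of the same build, whose gene bounds differ from the deposited ones in some members.

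Members with non-overlapping groups or an unadjusted p under 0.05, the member with the smallest p in each complex and both genes of each paralog pair are given by mouse and with their test. Other members are given by means or ranges, some also by mouse, and other genes of the pathway where their groups did not overlap or, outside this rule, after their values were seen. The members, lists and markers were chosen with earlier results of these data known. Simulated data were used to test the code of the fit. The alternatives tried were a pseudocount of 0.1 or 0.5, no filter or a filter at a mean of 5 FPKM, median-ratio and quantile scaling, a loess trend (span 0.5) on length and GC content removed in each mouse, each mouse left out, WT1 and KO6 left out, robust eBayes, array weights, summed rows and zeros as missing. Leaving out WT3 and KO8 was added after seeing the data. The fit ran in R 4.3.3 (limma 3.58.1). Python 3.11.15 did the remaining steps, using the packages pandas 2.3.3 and scipy 1.17.1, and figures were drawn in matplotlib 3.10.9.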

Additional observations from a re-analysis of the deposited data

Results flagged for a closer look

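Within each genotype, Dixon's criterion at its 5% level was applied to the highest and lowest mouse. Such a mouse stood apart from the other 3 in 10 of the 80 groups of 4 examined. These groups are genes and ratios from the same mice and are not independent, and the share over all tested genes was not computed. In 7 of the 10 that mouse was WT3 as the highest WT mouse. Mtor was at 3.95 FPKM in WT3, with the other WT mice between 2.46 and 2.67 FPKM, Rptor at 5.79 FPKM (others 3.74 to 4.01 FPKM) and Mlst8 at 4.44 FPKM (others 2.92 to 3.12 FPKM). Tsc2 was at 13.7 FPKM in WT3 (others 8.06 to 8.98 FPKM), Depdc5 at 2.39 FPKM (others 1.20 to 1.22 FPKM), Nprl3 at 8.69 FPKM (others 5.45 to 5.88 FPKM) and Wdr59 at 2.39 FPKM (others 1.86 to 1.94 FPKM). Among KO mice, Tsc2 stood at 4.50 FPKM in KO8, with the others between 7.50 and 7.92 FPKM. In WT1, Bcat2 was at 83.0 FPKM (other WT mice 41.2 to 46.0 FPKM), and the log2 ratio of Rragc to Rragd was -1.17 (other WT mice -2.49 to -2.41).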

How the results depend on the processing

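No member passed the limma threshold under any of the 21 alternatives, the lowest adjusted p being 0.377 for Mlst8 and Eif4ebp2, both without KO7. For Mlst8 it ran up to 0.863 over the alternatives that tested it, which the filter at a mean of 5 FPKM did not. No paired analysis was possible because the KO columns carry the numbers 5 to 8, which no WT column shares. Of 355 results for single named genes under an alternative, 325 kept their direction and their side of the threshold and 29 changed sign, in 7 members. Of the paralog ratios, 65 of 65 moved by less than their spread between mice. The ratios of Rraga to Rragb and Fnip1 to Fnip2 were recomputed only with no filter. Changed filters, robust eBayes, array weights, summed rows and zeros as missing could not move these ratios, so that part of the 65 was fixed in advance. After median-ratio scaling the log2 differences of Rragc, Rragd, Fnip1 and Rps6kb1 were 0.10, 0.0023, 0.024 and 0.11, and after quantile scaling those of Rragc and Rps6kb1 were 0.064 and 0.079. With the length and GC trend removed, Rraga was at -0.0035, Rragc at 0.049, Rragd at 0.024, Wdr59 at 0.035, Rps6kb1 at 0.0047 and Rps6kb2 at 0.058. Without WT1 and KO6, Rraga was at -0.031 and Rragc at 0.026, without WT3 and KO8 Rragc was at 0.078 and Rps6kb1 at 0.083, and with array weights Rragc was at 0.13 and Rps6kb2 at 0.039. With 1 mouse left out, Rraga ran from -0.093 to 0.13, Rragc from -0.19 to 0.19 and Rps6kb1 from -0.11 to 0.057, and, without a change of sign, Lamtor1 from 0.092 (without WT3) to 0.29 (without WT1), Rragd from -0.25 (without WT1) to -0.051 (without WT3), Fnip1 from -0.18 (without WT1) to -0.023 (without WT4) and Rps6kb2 from -0.34 (without KO7) to -0.095 (without WT3). Members with non-overlapping groups numbered 1 of 22 with a filter at a mean of 5 FPKM (8.56% of all tested genes). The count was 1 of 30 after quantile scaling (6.28%) and 1 of 30 with the length and GC trend removed (5.24%). Without WT1 and KO6 it was 6 of 30, where 19.4% of all tested genes had non-overlapping groups. With 1 mouse left out it ran from 3 to 5, where the share of all tested genes ran from 7.15% to 14.1%. It was 5 without KO6 (12.0%) and without KO7 (14.1%). Without WT3, and likewise without KO8, 0 members had an unadjusted limma p under 0.05, where 5.37% and 7.00% of all tested genes did. With no filter the members' median lay -0.12 from that of all genes, and with 1 mouse left out that difference ran from -0.084 to 0.038. Over all genes, 11 passed without WT1 and KO6, 1 with zeros as missing, and 4 to 9 with 1 mouse left out (9, 8, 6, 8 and 5 without WT1, WT2, KO6, KO7 and KO8). Bcat2 was at -3.56 (adjusted p = 0.187) without WT3 and KO8. The cause of these shifts was not tested. Depth is known only relative to WT2, so what it limits could not be set per gene.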
